A study of Mus musculus with 6 samples.

Results

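The lipins and the enzymes that build triglyceride in liver were measured in 6 mouse livers. The 9 genes, Lpin1, Lpin2, Lpin3, Gpam, Agpat2, Agpat3, Dgat1, Dgat2 and Mogat1, were chosen by name as steps of a known pathway. They are 9 of 18194 genes with a probe set of their own on the Affymetrix array, a chip on which each gene is read by sets of short probes. The 9 genes had 19 such probe sets. The value of a gene is that of its brightest probe set by the mean over the 6 arrays, and the other 10 probe sets are given beside it.

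All mice were 8-week-old C57BL/6J males kept on normal chow. Of 3 groups with 2 arrays each, 1 was wild-type and fed, 1 was wild-type and kept without food for 24 h, and 1 was Cnot3+/- and kept without food for 24 h. Fasted mice were housed singly. The protein made from Cnot3 belongs to the CCR4-NOT deadenylase, which removes poly(A) from mRNAs. What was deleted in the Cnot3 allele is not given, and no fed Cnot3+/- group was analysed here.

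Triglyceride is built on glycerol phosphate. Gpam, a mitochondrial acyltransferase, adds the first fatty acid, and the Agpat enzymes add the next to give phosphatidic acid. The lipins are phosphatidic acid phosphatases, which turn it into diacylglycerol. Dgat1 and Dgat2 add the last fatty acid, and Mogat1 makes diacylglycerol from monoacylglycerol instead. In liver, lipin 1 is also known as a coactivator that works with PGC-1alpha (the product of Ppargc1a) and PPARalpha in the fasting response, and Lpin1 itself is known to respond to glucocorticoids and cAMP. The fasted liver takes up fatty acids released by fat tissue, so re-esterification goes on while fatty acid synthesis is low.

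Levels are RMA values on the log2 scale, so a difference of 1 is 2-fold, and array medians ran from 5.59 to 5.64. No detection call was used, and 2 arrays a group limit the precision of every value. Replicates are labelled biological, though not as single animals or pools, so p-values measure the spread between these samples. Cnot3 itself read 9.27 and 9.32 in fasted wild-type liver and 9.40 and 9.16 on the arrays labelled Cnot3+/-, so its level does not check the genotype labels. Alb, which encodes serum albumin, read 15.17 to 15.26 on all 6 arrays, as a hepatocyte marker does in liver. Of 4 measured fat cell markers, 3 had means below the median gene (6.73), Adipoq at 3.88 to 4.72 among them, while Fabp4, which macrophages also make, read 7.99 to 8.61. All 6 skeletal muscle markers had means below the median gene. The summed level of 8 macrophage and Kupffer cell markers (not logged) was 5186 to 5529 in the fed, 6818 to 7306 in the fasted wild-type and 8073 to 11488 in the fasted Cnot3+/- group. All 8 differences were above 0 on fasting and between genotypes. Those of fasted Cnot3+/- against fed wild-type liver are their sums and so were above 0 too. On fasting and between genotypes 0 of the 8 passed the test. An unadjusted limma p under 0.05 was reached by 3 and 4 (18.9% and 5.56% of all genes). In fasted Cnot3+/- against fed wild-type liver 4 rose (Marco, C1qa, C1qb and Vsig4), where 3.88% of all genes did. Of 6 stellate cell and fibroblast markers, 3 fell on fasting, with log2 differences of -2.32 for Col3a1 (limma adjusted p = 0.0125), -1.20 for Lrat (adjusted p = 0.00497) and -0.65 for Col1a1 (adjusted p = 0.0286). On the same list Dcn rose by 0.61 (adjusted p = 0.0497). The endothelial marker Lyve1 rose by 1.58 (adjusted p = 0.00456), alone among 6. Of 4 measured exocrine pancreas markers Cela1 fell by 1.45 on fasting (adjusted p = 0.00308) and carried the summed level, which was 1473 to 1581 in the fed and 698 to 726 in the fasted wild-type group. The other pancreas markers differed by -0.13 to 0.31. For 5 small intestine markers the sum was 10480 and 25384 on the fed and 27211 to 39355 on the 4 fasted arrays, led by Apoa4, which liver also makes. The part of these markers in the results below was not tested. In whole liver, fewer cells of a type and less RNA per cell cannot be told apart.

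Lpin1 was set apart from the other 8 genes by its 2 fed arrays. Its brightest probe set read 13.02 and 10.08 on the fed, 12.54 and 12.38 on the fasted wild-type, and 12.95 and 13.03 on the fasted Cnot3+/- arrays. The first fed array was thus as high as the Cnot3+/- arrays, and the second was lower than every other array. The gap of 2.94 between the fed arrays was matched or exceeded by 6 of 18194 genes, Lpin1 among them (0.033%). Between the fasted wild-type arrays the gap of Lpin1 was 0.16, which 44.2% of genes matched or exceeded. The second Lpin1 probe set gave the same picture, with 12.83 and 9.88, then 12.42 and 12.34, then 12.70 and 12.93.

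Lpin2 followed Lpin1 at a smaller amplitude. It read 12.55 and 11.03 on the fed, 12.50 and 12.80 on the fasted wild-type, and 12.79 and 12.98 on the fasted Cnot3+/- arrays. Again the second fed array was the lowest of the 6, with a fed gap of 1.52 that 0.275% of genes matched or exceeded. The second Lpin2 probe set by brightness read 11.68 and 10.12 in the fed group and 11.54 to 12.41 in the fasted groups, and the third 11.005 and 9.54 in the fed group and 11.32 to 11.91 in the fasted groups. All 3 placed the second fed array lowest. The dimmest Lpin2 probe set read 6.28 and 5.41, then 7.2 and 6.45, then 9.32 and 7.39, with the 2 Cnot3+/- arrays 1.93 apart. It was closer to the array medians than the other 3.

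**Figure D1:**
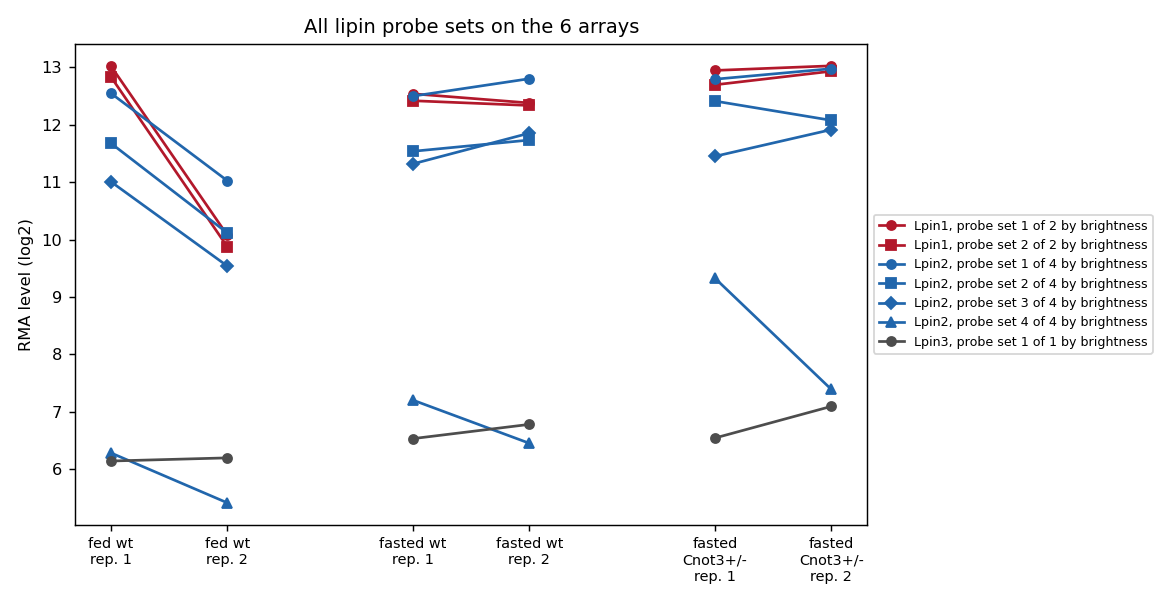
Levels (RMA, log2, vertical axis) of the 7 probe sets of Lpin1, Lpin2 and Lpin3 on the 6 arrays, with a line joining the 2 arrays of each group. The Lpin1 lines run from 13.02 and 12.83 on the first fed array down to 10.08 and 9.88 on the second, and are nearly level within the fasted groups.

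The average fasting difference of these 2 lipins depended on the fed arrays. With all arrays, fasted minus fed wild-type was 0.91 for Lpin1 (log2, SE 0.78, 95% interval -0.92 to 2.75, limma adjusted p = 0.613) and 0.86 for Lpin2 (SE 0.42, interval -0.13 to 1.86, adjusted p = 0.335), and neither passed the test. Against the second fed array alone the differences were 2.38 (adjusted p = 0.00386) and 1.63 (adjusted p = 0.0175), and both passed. Against the first fed array alone they were -0.56 (adjusted p = 0.164) and 0.10 (adjusted p = 0.888). With 1 fed array, the spread of the fed group is taken to be that of the fasted groups. The files do not show which fed array is the more typical.

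The stretches of DNA just before the annotated starts of Lpin1 and Lpin2 are printed because these genes differed together between the fed arrays. They were taken from RefSeq (GRCm38.p6), which gave 1 start for Lpin1 and 3 for Lpin2 in the table used, and held 7 of the 9 genes. Each is the 250 bases before a start, read 5′ to 3′ along the gene. Lpin1 lies on the minus strand at chr12:16610967-16611216, before a start 42937 bases inside the annotated gene. The printed Lpin2 windows lie on the plus strand at chr17:71183282-71183531, before the annotated 5′ end of the gene, and at chr17:71204404-71204653, before a start 21122 bases further in. The window at the second Lpin2 start is not printed. Capitals mark matches, on either strand, to AGAACA (the core of a glucocorticoid response element), TGACG (the core of a cAMP response element), CACGTG (an E-box), CCAAT (the NF-Y box) and GGGCGG (a GC box).
Lpin1: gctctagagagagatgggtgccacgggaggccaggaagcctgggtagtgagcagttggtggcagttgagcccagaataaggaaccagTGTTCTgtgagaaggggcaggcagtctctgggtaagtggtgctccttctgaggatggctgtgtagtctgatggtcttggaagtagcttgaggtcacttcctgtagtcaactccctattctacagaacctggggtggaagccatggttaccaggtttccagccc
Lpin2, the first start: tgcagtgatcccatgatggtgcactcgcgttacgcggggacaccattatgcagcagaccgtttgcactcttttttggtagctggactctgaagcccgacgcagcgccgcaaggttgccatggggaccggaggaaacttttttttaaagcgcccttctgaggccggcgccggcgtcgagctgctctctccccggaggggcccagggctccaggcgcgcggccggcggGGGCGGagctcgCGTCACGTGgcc
Lpin2, the third start: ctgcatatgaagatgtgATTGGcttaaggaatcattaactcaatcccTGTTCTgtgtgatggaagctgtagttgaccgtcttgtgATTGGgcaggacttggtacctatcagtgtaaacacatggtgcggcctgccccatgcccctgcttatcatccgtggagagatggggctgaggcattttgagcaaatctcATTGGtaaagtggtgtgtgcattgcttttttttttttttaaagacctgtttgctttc

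The Lpin1 window held AGAACA once, read on the opposite strand as TGTTCT with its first base at -163 from the start. The window at the first Lpin2 start held CACGTG at -9, TGACG at -12 on the opposite strand, overlapping it, and GGGCGG at -24. The window at the third Lpin2 start held CCAAT on the opposite strand at -233, -165 and -57, and AGAACA on the opposite strand at -203. The window at the second Lpin2 start held GGGCGG at -79 and none of the other motifs. Of 32851 windows of this length in the table, 16.1% held AGAACA, 17.8% TGACG, 6.02% CACGTG, 33.8% CCAAT and 32.7% GGGCGG. TCACNCCAC, a sterol response motif found in 1.05% of windows, was in none of the 11 windows of these 7 genes. A match describes the letters and says nothing of binding. Windows of other members held these motifs too. AGAACA lay on the opposite strand at -245 at the first Lpin3 start. TGACG lay on the opposite strand at -31 and -9 at the second Gpam start. The single Agpat3 window held none of the motifs.

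Lpin3, the lipin best known from gut and low in liver, read 6.14 and 6.195 on the fed, 6.53 and 6.78 on the fasted wild-type, and 6.54 and 7.09 on the fasted Cnot3+/- arrays. Each fasted array was above each fed array. The fasting difference was 0.49 (SE 0.19, interval 0.03 to 0.94) and did not pass (adjusted p = 0.23). The fed arrays were 0.05 apart at this gene, unlike at Lpin1 and Lpin2.

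Agpat3, an acyltransferase of the second acylation step, was the 1 member that rose on fasting. It read 10.99 and 11.26 on the fed, 11.83 and 11.95 on the fasted wild-type, and 11.76 and 12.13 on the fasted Cnot3+/- arrays. All fasted arrays lay above both fed arrays, and the wild-type difference was 0.77 (log2, 1.70-fold, SE 0.17, interval 0.38 to 1.16, adjusted p = 0.0464). The other 3 Agpat3 probe sets rose by 0.78, 1.01 and 0.80, each past the test in a fit of all 34945 single-gene probe sets (adjusted p = 0.0283, 0.0188 and 0.0303), where the brightest one gave 0.0719. These 3 calls were lost without the second fed array, and without either fasted wild-type array. In the fit of genes the call was lost with each of the 4 wild-type arrays left out in turn, and held in a fit of those 4 arrays without the Cnot3+/- group (adjusted p = 0.0335). Dropping the first or the second fed array gave an adjusted p of 0.183 or 0.0965, and dropping the first or the second fasted wild-type array gave 0.185 or 0.233. The difference then ran from 0.63 to 0.90.

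Gpam and Agpat2 read lower after the fast. Gpam, which commits glycerol phosphate to glycerolipid synthesis, read 13.01 and 12.73 on the fed, 12.34 and 12.02 on the fasted wild-type, and 12.37 and 12.30 on the fasted Cnot3+/- arrays. Every fasted array was below both fed arrays, but the difference of -0.69 (SE 0.16, interval -1.06 to -0.31) narrowly missed the threshold (adjusted p = 0.0571). It passed with a variance trend (adjusted p = 0.0333). The dimmer Gpam probe set did not show this: it read 10.29 and 9.75 in the fed and 10.01 and 10.19 in the fasted wild-type group, a difference of 0.08 (SE 0.39).

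Agpat2, whose loss in humans causes a congenital lipodystrophy, read 12.71 and 12.99 on the fed, 12.46 and 12.37 on the fasted wild-type, and 12.56 and 12.15 on the fasted Cnot3+/- arrays. The groups did not overlap, and the difference was -0.44 (SE 0.17, interval -0.84 to -0.03, adjusted p = 0.223). The member with an upward call and the member with this downward difference thus belong to the same enzyme family.

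The diacylglycerol acyltransferases pointed in opposite directions. Dgat1, an enzyme of the endoplasmic reticulum linked to re-esterification of fatty acids from outside, read 9.40 and 9.40 on the fed, 9.84 and 9.81 on the fasted wild-type, and 10.10 and 10.17 on the fasted Cnot3+/- arrays. The 3 groups were stacked without overlap, and fasted minus fed wild-type was 0.43 (SE 0.11, interval 0.16 to 0.69, adjusted p = 0.0844). A dimmer Dgat1 probe set, below the array medians, differed by 0.44.

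Dgat2, an unrelated protein of the same activity linked to newly made fatty acids, read 13.05 and 13.02 on the fed, 12.74 and 12.76 on the fasted wild-type, and 12.74 and 12.71 on the fasted Cnot3+/- arrays. All 4 fasted arrays lay within a range of 0.05, below both fed arrays, with a difference of -0.28 (SE 0.11, interval -0.55 to -0.02, adjusted p = 0.221). The second Dgat2 probe set overlapped between the groups and differed by -0.05 (SE 0.14). Mogat1 read 6.38 and 6.58 on the fed, 6.76 and 7.23 on the fasted wild-type, and 6.62 and 6.80 on the fasted Cnot3+/- arrays, with a wild-type difference of 0.52 (SE 0.18, interval 0.09 to 0.94, adjusted p = 0.176). Without fasted wild-type replicate 2, the higher of the pair, the Mogat1 difference was 0.28, and without replicate 1 it was 0.75.

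**Figure D2:**
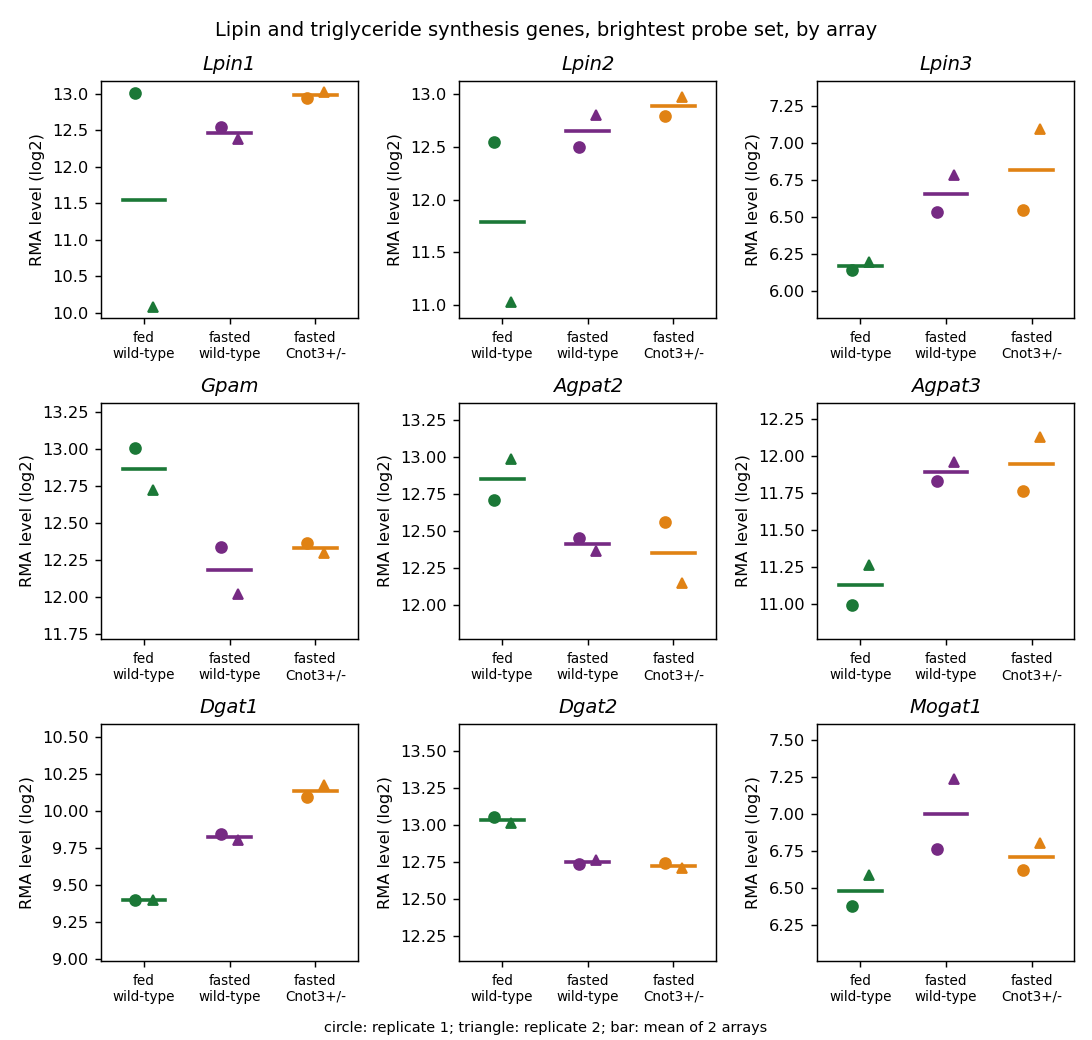
Level of each of the 9 genes (brightest probe set, RMA log2) on the 6 arrays by group, with a bar at the mean of 2 arrays; the vertical range differs between panels. Lpin3, Agpat3, Dgat1 and Mogat1 step up from fed to fasted without overlap, and Gpam, Agpat2 and Dgat2 step down. Between the wild-type groups 50.8% of all genes did not overlap, and only Agpat3 of the 9 passed the test. Lpin1 and Lpin2 have fed arrays 2.94 and 1.52 apart.

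Taken as a list, the 9 genes had 1 call upward and 0 downward on fasting, where 1.87% of all genes were called upward and 3.15% downward. Of the other 10 probe sets 3 were called upward, all of Agpat3, where 0.970% of all single-gene probe sets were. An unadjusted p under 0.05 was reached by 7 of 9 genes (18.9% of all genes), which leaves out Lpin1 and Lpin2. The 2 wild-type groups did not overlap at the same number, 7 of 9, as 4 genes were higher and 3 lower in the fasted group (50.8% of all genes did not overlap). The median difference was 0.49, against 0.02 over all genes. The differences of single genes ran from -0.69 for Gpam to 0.91 for Lpin1, so no brightest probe set reached 2-fold on the average of 2 arrays. Some other probe sets did. The third of Lpin2 differed by 1.31 (limma adjusted p = 0.213) and the second of Lpin1 by 1.02 (adjusted p = 0.611). One of Agpat3 rose by 1.01 (adjusted p = 0.0188). The second and the dimmest of Lpin2 differed by 0.74 and 0.98.

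**Figure D3:**
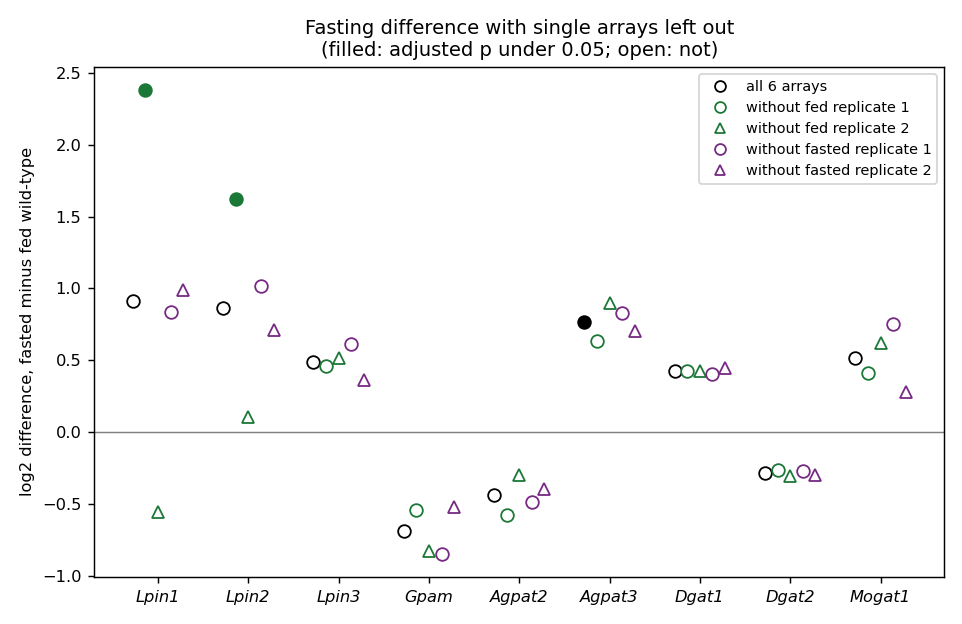
Log2 difference between fasted and fed wild-type liver (vertical axis) of each gene with all arrays and with single wild-type arrays left out. Lpin1 moves from 2.38 without fed replicate 1 to -0.56 without fed replicate 2, while Dgat1 stays between 0.41 and 0.44.

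The genotype comparison asks what the Cnot3+/- state changes in the fasted liver. None of the 9 genes and none of their other 10 probe sets passed the test, as none of 18194 genes did (0%, with 5.56% at an unadjusted p under 0.05). Dgat1 had the smallest p of the 9: the Cnot3+/- arrays read 10.10 and 10.17 against 9.84 and 9.81, a difference of 0.31 (SE 0.11, interval 0.05 to 0.58, unadjusted p = 0.0266, adjusted p = 0.863). Its dimmer probe set differed by -0.11.

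Lpin1 was also higher on both Cnot3+/- arrays than on both fasted wild-type arrays, by 0.53 (SE 0.78, interval -1.31 to 2.36, adjusted p = 0.944). That SE carries the gap between the fed arrays: in a fit of the 4 fasted arrays alone it was 0.13, and the adjusted p was 0.872. The groups overlapped at the other 7 genes, so 2 of 9 did not overlap, where 36.0% of all genes did not. Lpin2 differed by 0.23 (interval -0.76 to 1.23), and its dimmest probe set by 1.53 (unadjusted p = 0.0438), with 1 Cnot3+/- array at 9.32 and the other at 7.39.

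The remaining genes gave narrower intervals than Lpin1 and Lpin2. Dgat2 differed by -0.02 (interval -0.28 to 0.24), Agpat3 by 0.05 (-0.34 to 0.44), Agpat2 by -0.06 (-0.46 to 0.35) and Lpin3 by 0.16 (-0.29 to 0.62). The second Dgat2 probe set read 11.74 and 11.94 in wild-type and 11.45 and 11.69 on the Cnot3+/- arrays, a difference of -0.27 (limma unadjusted p = 0.103). The other Agpat3 probe sets differed by -0.09, 0.14 and -0.11. Gpam differed by 0.15 (-0.22 to 0.53) on its brightest probe set, while its dimmer probe set read 10.01 and 10.19 in wild-type and 8.47 and 9.74 on the Cnot3+/- arrays, a difference of -0.998 (unadjusted p = 0.0392, adjusted p = 0.814). Mogat1 differed by -0.29 (-0.71 to 0.14), and by -0.52 and -0.05 without the first or the second fasted wild-type array. The median over the 9 genes was 0.15, against -0.00 over all genes.

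**Figure D4:**
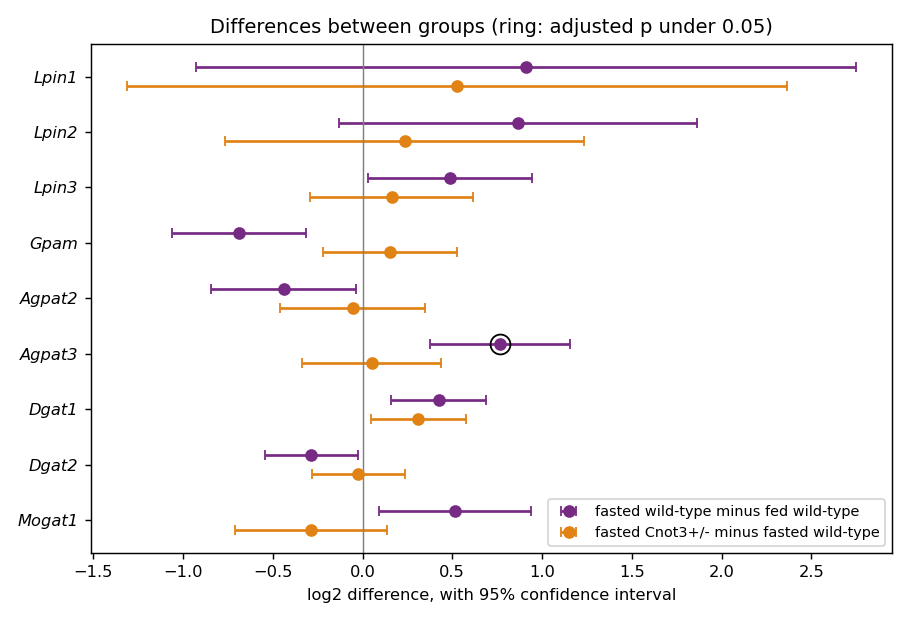
Log2 differences (horizontal axis) of the 9 genes with 95% confidence intervals for fasting in wild-type liver and for genotype in fasted liver; a ring marks an adjusted p under 0.05. Agpat3 on fasting, at 0.77, is the only ringed value, and the Lpin1 intervals are the widest.

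Fasted Cnot3+/- liver was also set against fed wild-type liver. This comparison shares its fed arrays with the fasting comparison and its Cnot3+/- arrays with the genotype comparison. Each difference is the sum of those of the other comparisons, so its values are given side by side and not as further evidence. Agpat3 was higher by 0.82 (SE 0.17, adjusted p = 0.0287), beside 0.77 for the wild-type fast. Dgat1 was higher by 0.74 (SE 0.11, adjusted p = 0.0116), beside 0.43 for the wild-type fast and 0.31 between genotypes, neither of which passed. These 2 genes passed upward and 0 passed downward, where 3.88% and 3.68% of all genes did.

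The Dgat1 call was lost when either fed array (adjusted p = 0.0523 and 0.0583) or the second Cnot3+/- array (0.0516) was dropped, and held when the first Cnot3+/- array was (0.0329). It was also lost on the dimmer Dgat1 probe set, where the difference was 0.33. The Agpat3 call was lost on dropping either fed array (0.131 and 0.0636) or the second Cnot3+/- array (0.111), and held without the first (0.0289). Lpin2 differed by 1.10 (SE 0.42, adjusted p = 0.19) and Lpin1 by 1.44 (SE 0.78, adjusted p = 0.366). Without fed replicate 1 these were 1.86 (adjusted p = 0.0106) and 2.91 (adjusted p = 0.0019), and without fed replicate 2 they were 0.34 (adjusted p = 0.451) and -0.03 (adjusted p = 0.96). Lpin3, at 0.65 with all arrays (adjusted p = 0.0991), was 0.92 without the first Cnot3+/- array (adjusted p = 0.0319) and 0.37 without the second (adjusted p = 0.298). Fed wild-type and fasted Cnot3+/- arrays did not overlap at 8 of 9 genes (48.0% of all genes), Lpin1 being the exception, and 7 had an unadjusted p under 0.05 (21.3%). Of the other 10 probe sets, the 3 of Agpat3 passed, all upward (2.09%).

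Genes around these steps were taken from 4 pathway lists. Of 14 measured genes of other acylation and glycerol phosphate steps, 1 rose and 1 fell on fasting, with a median difference of 0.12. Gpat3, an acyltransferase of the endoplasmic reticulum that does the same first step as Gpam, rose by 1.06 (SE 0.22, adjusted p = 0.0403), from 8.19 and 8.62 to 9.19 and 9.75. Acsl4, an acyl-CoA synthetase that favours arachidonic acid, fell by 0.69 (SE 0.13, adjusted p = 0.0292). Acsl3, an acyl-CoA synthetase of lipid droplets, differed by -2.002 (adjusted p = 0.0521), with fasted wild-type arrays at 6.83 and 8.32, and Gpd1, which makes glycerol phosphate, by 0.36 (adjusted p = 0.151). Neither call on this list held without fed replicate 1, without fed replicate 2 or without fasted replicate 1, and 1 gene was called without fasted replicate 2.

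Of 27 measured genes that use phosphatidic acid or diacylglycerol for other lipids, 2 rose and 1 fell, with a median of -0.01. Choline kinase Chkb rose by 1.14 (SE 0.11, adjusted p = 0.00377), from 9.71 and 9.69 to 10.87 and 10.81. Dgka, a diacylglycerol kinase that runs the lipin step backwards, rose by 0.72 (SE 0.15, adjusted p = 0.0436). Pemt, which makes phosphatidylcholine from phosphatidylethanolamine, fell by 0.68 (SE 0.13, adjusted p = 0.0297). Dgkh, another diacylglycerol kinase, differed by 0.63 (adjusted p = 0.0832). With single wild-type arrays left out, 1 or 2 genes of the list were called.

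Of 14 measured genes of triglyceride breakdown and export, 1 rose and 2 fell, with a median of 0.06. Pnpla2, the lipase that starts triglyceride breakdown, rose by 1.79 (SE 0.16, adjusted p = 0.00308), with both fed arrays at 9.74 and the fasted wild-type arrays at 11.47 and 11.60. The carboxylesterase Ces1g fell by 1.66 (SE 0.24, adjusted p = 0.0124) and the deacetylase Aadac by 0.80 (SE 0.15, adjusted p = 0.0327). Ces1g belongs to a family of close copies, whose probe sets may share signal. Apob, the protein of very low density lipoprotein, differed by 0.69 (adjusted p = 0.156). With single wild-type arrays left out, 1 to 3 genes of this list were called. G0s2, an inhibitor of the Pnpla2 lipase, was looked at after its values were seen: its fed arrays read 9.60 and 12.63, a gap of -3.03 opposite in sign to that of Lpin1, beside 12.67 and 12.82 on the fasted wild-type arrays.

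Of 12 measured regulators of lipin, 0 rose and 2 fell, with a median of -0.06. Srebf1, the factor that drives fatty acid synthesis genes, fell by 4.67 (SE 0.19, adjusted p = 0.000251), and Nr3c1, the glucocorticoid receptor, by 0.63 (SE 0.13, adjusted p = 0.0391). With each of the 4 wild-type arrays left out in turn, 1 gene of this list was called. Ppara and Pparg, nuclear receptors of fat metabolism, differed by 0.53 (adjusted p = 0.0681) and -0.67 (adjusted p = 0.0627). Ppargc1a, the coactivator partner of lipin 1, was also looked at after its values were seen. It read 8.27 and 6.70 on the fed, 7.64 and 8.81 on the fasted wild-type, and 9.28 and 9.32 on the fasted Cnot3+/- arrays. Its second fed array was the lowest. The second fed array was also the lower of the fed pair at Ppargc1b, Hnf4a and Crtc2. It was the higher at Ppara, Nr3c1, Srebf1, Ctdnep1, Cnep1r1, Pparg, Creb1 and Ywhab.

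Between the fasted genotypes no gene of the 4 lists passed. By limma the smallest p values among the lipin regulators belonged to Crtc2 (difference 0.41, unadjusted p = 0.0181) and Ppargc1b (0.44, unadjusted p = 0.0231). On the phosphatidic acid list they belonged to Ptdss2 (0.29, unadjusted p = 0.0383) and Dgkh (-0.36, unadjusted p = 0.0659). Pnpla2 (0.33) and Ces1d (-0.32) led the breakdown list and Acsl4 (0.22) and Gpd1 (-0.18) the acylation list, all with an unadjusted p above 0.05. The adjusted p of these 8 genes was between 0.863 and 0.868. Crtc2 and Ppargc1b encode coactivators, of CREB and of nuclear receptors.

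**Figure D5:**
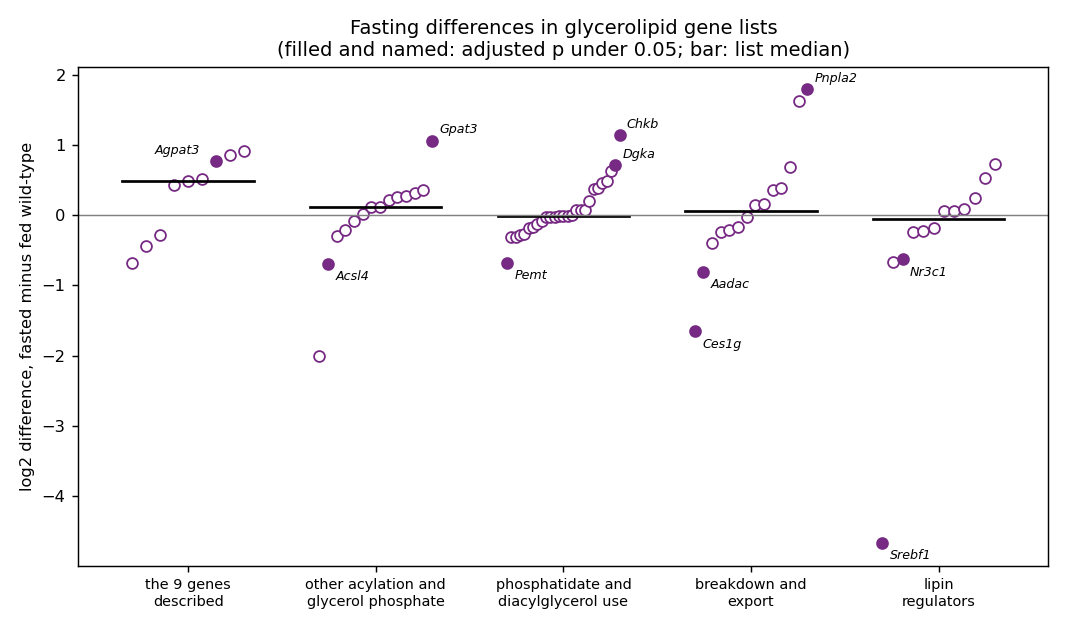
Log2 differences between fasted and fed wild-type liver (vertical axis) of the 9 genes and of the 4 pathway lists, sorted within each list, with a bar at the list median. Filled, named points passed the test; the medians lie between -0.06 and 0.49, while single genes reach 1.79 for Pnpla2 and -4.67 for Srebf1.

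The genes whose profile over the 6 arrays lay nearest to a member were found by the root mean square distance between log2 values, each gene centred on its own mean, among genes above the median gene with a proper symbol. Nearest to Agpat3 were Arl15 (0.04), Map7 (0.06) and Wdr73 (0.06). For Lpin1 and Lpin2, which were added to this search after their values were seen, the nearest genes lay farther off. Ip6k2, an inositol phosphate kinase, lay at 0.31 from Lpin1, Pck1, the gluconeogenic enzyme, at 0.34, and the transcription factor Zbtb16 at 0.35. Their fed gaps were 2.07, 2.19 and 3.02, with the first fed array higher in each. The distance is not scaled, so a gene near Lpin1 must share much of its fed gap. These gaps are thus no separate result, and a wide spread over the arrays also makes for larger distances. Nearest to Lpin2 were Tcp11l2 (0.11), Slc7a2, a cationic amino acid transporter (0.17), and the cyclin Ccng2 (0.21).

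Among the 9 genes themselves the nearest pair was Lpin3 with Agpat3 (0.15), followed by Agpat2 with Dgat2 (0.17). Lpin1 and Lpin2 lay 0.46 apart, since the fed gap of Lpin1 was the larger. The 5 genes with a wider fed gap than Lpin1 were Igfbp1 (3.92), Zbtb16 (3.02) and Ppp1r3g (2.99), higher on the first fed array, and Angptl8 (-3.10) and G0s2 (-3.03), higher on the second. Igfbp1 is known to be repressed by insulin and Angptl8 to be induced by feeding, and both are named here for their fed gap. Srebf1, which was listed as a lipin regulator, read 13.03 and 13.51 on the fed arrays and 8.46 to 8.83 on the fasted arrays. What set the fed arrays apart was not tested.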

How the data were processed

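The authors' table holds log2 values from RMA, a tool named without a version per the submitters' processing notes. The genome build is not given in the sources used here. Of 45101 probe sets, 34945 name a single gene in the platform annotation, and the brightest of each gene gave 18194 genes. The values were used with no further normalisation. Limma 3.58.1 (R 4.3.3) fitted 3 group means to all 6 arrays, which left 3 residual and 4.24 prior degrees of freedom. Benjamini-Hochberg adjustment ran over all genes within a comparison, and a call is an adjusted p under 0.05. The fit was tested on simulated data. It recovered 68% of genes given a log2 change of 1, both for fasting and for genotype. False calls were 4.05% and 6.67% of calls. Other probe sets were taken from a fit of all single-gene probe sets. The genes, lists and motifs were chosen with earlier results of these data known. Named genes are the 9 members, called genes of the lists, the 4 smallest p on fasting and the 2 on genotype in each list, and the 3 nearest profiles of each called member. Promoter windows came from RefSeq. Having 2 arrays a group limits precision, and exact permutation of so few arrays cannot reach 0.05. Scanner files were not used here, so background correction was not varied. Alternatives changed the probe set, normalisation, filter, variance model, arrays fitted and replicate block.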

Additional observations from a re-analysis of the deposited data

How the results depend on the processing

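On fasting, 1 member was called, and 2 were with a variance trend or with the replicate block (Gpam besides). Of the other 10 probe sets 3 were called with all arrays, all of Agpat3. Both counts changed with each single wild-type array left out, and fewer of the other 10 probe sets were then called. Between genotypes 0 were called under all 12 alternatives. For fasted Cnot3+/- against fed wild-type, 2 were called, 1 without shared probe sets, 1 with the 4 arrays alone, 4 with the replicate block and 0 to 3 with single arrays left out. Its dimmer probe sets gave 3, then 1 with the 4 arrays alone, 4 with the replicate block and 0 to 3 with single arrays left out. Replicate numbers are not a stated pairing: deviations of same-numbered arrays correlated, across genes, at 0.04 and -0.01 between fed and fasted groups and 0.45 between the fasted groups. Signs reversed for Lpin1 without fed replicate 2: with single arrays left out it ran from -0.56 to 2.38 on fasting and from -0.0313 to 2.91 for Cnot3+/- against fed. Between genotypes Gpam ran from -0.00699 to 0.31, Agpat3 from -0.13 to 0.23, Lpin3 from -0.11 to 0.44 and Agpat2 from -0.26 to 0.15. With the mean over probe sets Gpam was -0.42 and Agpat3 -0.00308, and without shared probe sets Agpat3 was -0.0867 and Dgat1 -0.11. None of these genotype values passed in either sign. Lpin3 and Mogat1 lie below the median gene and were not tested with that filter. The cause of these changes was not tested, beyond the fewer arrays fitted.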
